A study of Rattus norvegicus with 18 samples.

Results

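Mitochondrial ribosomal protein genes are the nuclear genes for the protein subunits of the ribosome inside mitochondria. They were taken as every gene whose symbol begins with Mrpl or Mrps and a number, which gave 69 of the 17337 genes in the files, 41 with Mrpl and 28 with Mrps symbols. Mrpl stands for the large subunit and Mrps for the small one, but Mrps18a and Mrps30 are known as proteins of the large subunit. Mrps36, which RefSeq now lists as Kgd4, is known as a part of oxoglutarate dehydrogenase and is kept here by its symbol. Their levels were followed in rat cells sorted as oligodendrocyte progenitor cells (OPCs), the dividing glial cells that give rise to myelinating oligodendrocytes. The cells were sorted with magnetic beads and sequenced as total RNA with a low-input stranded kit. There were 6 groups of 3 libraries. Aged primary and neonate primary libraries were made from sorted cells, and their age is known from the letter in the title alone. Aged soft, aged stiff, neonate soft and neonate stiff libraries came from cells cultured on laminin-coated hydrogels, soft or stiff. FGF and PDGF in the medium are given for all samples. No genotype, strain, age in days or gel modulus is given, and the labels do not tie libraries to animals. The p-values therefore measure the spread between libraries, which may be technical.

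The mitochondrial ribosome translates the few messages of the mitochondrial genome, all of them core subunits of the respiratory chain and ATP synthase. Its RNAs are made inside the organelle, but every protein subunit is encoded in the nucleus, made on cytosolic ribosomes and imported. Some subunits descend from the bacterial ribosome, and others were gained in mitochondria.

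Promoter sequences are shown because many members share short motifs of housekeeping transcription factors. RefSeq promoters on GRCr8, 250 bases before to 50 after the annotated start, were found for 55 of the 69 members. Letters of 3 motifs were searched on both strands. TGCGCA, which reads the same on both, is the core of the site of NRF1, a regulator of nuclear genes for mitochondria. CCGGAAG belongs to sites of ETS factors such as GABP, and AAGATGGC to that of YY1. NRF1 letters were in 14 member promoters (25.5%) and in 9.17% of all 18999 protein-coding promoters. ETS letters were in 18 (32.7%), against 11.2%, and YY1 letters in 14 (25.5%), against 3.92%. Any of them was in 35 of the 55 (63.6%), against 21.5% of all, at a similar median GC content of 56.0% and 55.3%. Mrpl36, Mrps18a and Mrps18b held all 3. A match is a description and not a bound site. The 150 bases before the start are printed for 4 members to which the results return, all on the plus strand, with matches on either strand in capitals. The member with the most reads is Mrpl23 (chr1:207116780-207116929, ETS letters beginning 67 bases before the start, and NRF1 letters outside this window). Mrpl52 (chr15:31852786-31852935) holds the reverse of the ETS letters at 49 bases, Mrps18b (chr20:2842856-2843005) holds NRF1 letters at 15 bases and its other matches outside this window, and Mrpl55 (chr10:44488103-44488252) holds none.
Mrpl23: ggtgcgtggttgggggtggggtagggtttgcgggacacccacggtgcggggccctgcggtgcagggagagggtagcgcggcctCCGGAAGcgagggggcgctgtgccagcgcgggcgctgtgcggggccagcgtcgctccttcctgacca
Mrpl52: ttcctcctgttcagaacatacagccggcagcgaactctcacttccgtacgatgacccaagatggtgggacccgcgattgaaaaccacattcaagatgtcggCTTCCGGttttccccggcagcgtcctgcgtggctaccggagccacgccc
Mrps18b: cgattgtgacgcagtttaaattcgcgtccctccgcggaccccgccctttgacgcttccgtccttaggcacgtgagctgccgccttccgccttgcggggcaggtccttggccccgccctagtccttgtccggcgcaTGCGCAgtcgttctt
Mrpl55: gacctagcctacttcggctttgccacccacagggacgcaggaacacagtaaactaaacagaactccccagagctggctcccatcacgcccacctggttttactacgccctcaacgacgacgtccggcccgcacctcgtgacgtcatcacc

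Levels are in transcripts per total transcripts corrected for length (TPM), divided by 1 factor per library and called scaled TPM. Libraries held 22631 to 107899 read pairs outside ribosomal RNA, estimated from coverage at 300 bases a pair. A single pair on a transcript of 1 kb equalled 4.46 to 20.9 scaled TPM. Replicate 1 of aged primary, aged soft and aged stiff had reads on many more genes than the rest of its group, with 77.2%, 66.9% and 54.7% of olfactory receptor genes above 0. These are called the broad libraries. Markers of OPCs (9 genes) summed to 770.2 to 872 scaled TPM in neonate primary and 86.1 to 186 in aged primary libraries. Markers of microglia (12 genes) summed to 129 to 261 and 2586 to 4401. All 12 were above 0 in every aged primary library, and Tmem119, a defining one, was at 0 in every neonate primary library. Neither sum overlapped between the ages, and the microglial sum exceeded the OPC sum in aged primary libraries alone among the primary ones. In bulk RNA, fewer cells of a type and less RNA per cell cannot be told apart.

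Most members were found in some libraries of every group, at a few reads each. The members received 38.0 to 162 pairs per library and 1510 over all libraries. Of their 1242 values 562 (45.2%) were 0, against 41.4% of the values of all tested genes. The median value rested on 0.430 pairs and only 58 values (4.67%) on 5 pairs or more, and a member listed at 0 may still have been expressed. In aged primary replicates 1 to 3 the number of members above 0 was 55, 29 and 31, and in neonate primary ones 45, 39 and 41. On aged soft gels it was 50, 39 and 38, on aged stiff gels 39, 24 and 23, on neonate soft gels 40, 38 and 35 and on neonate stiff gels 39, 39 and 36. In each aged group the highest number was that of the broad library. Mrpl23 and Mrpl51 were above 0 in all 18 libraries, 15 members in at least 15 libraries and 6 in at most 3. Mrpl36 was listed at 0 throughout. Tests cover the 63 members that reached a TPM of 1 in 3 or more libraries, and Mrpl1, Mrpl13, Mrpl32, Mrpl36, Mrps24 and Mrps36 were not tested. Exons of 3 members overlap a gene on the opposite strand (Mrpl47 and Actl6a, Mrps7 and Gga3, Mrpl13 and Mtbp). The quantification used no strand option, so reads of such partners cannot be told apart.

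**Figure D1:**
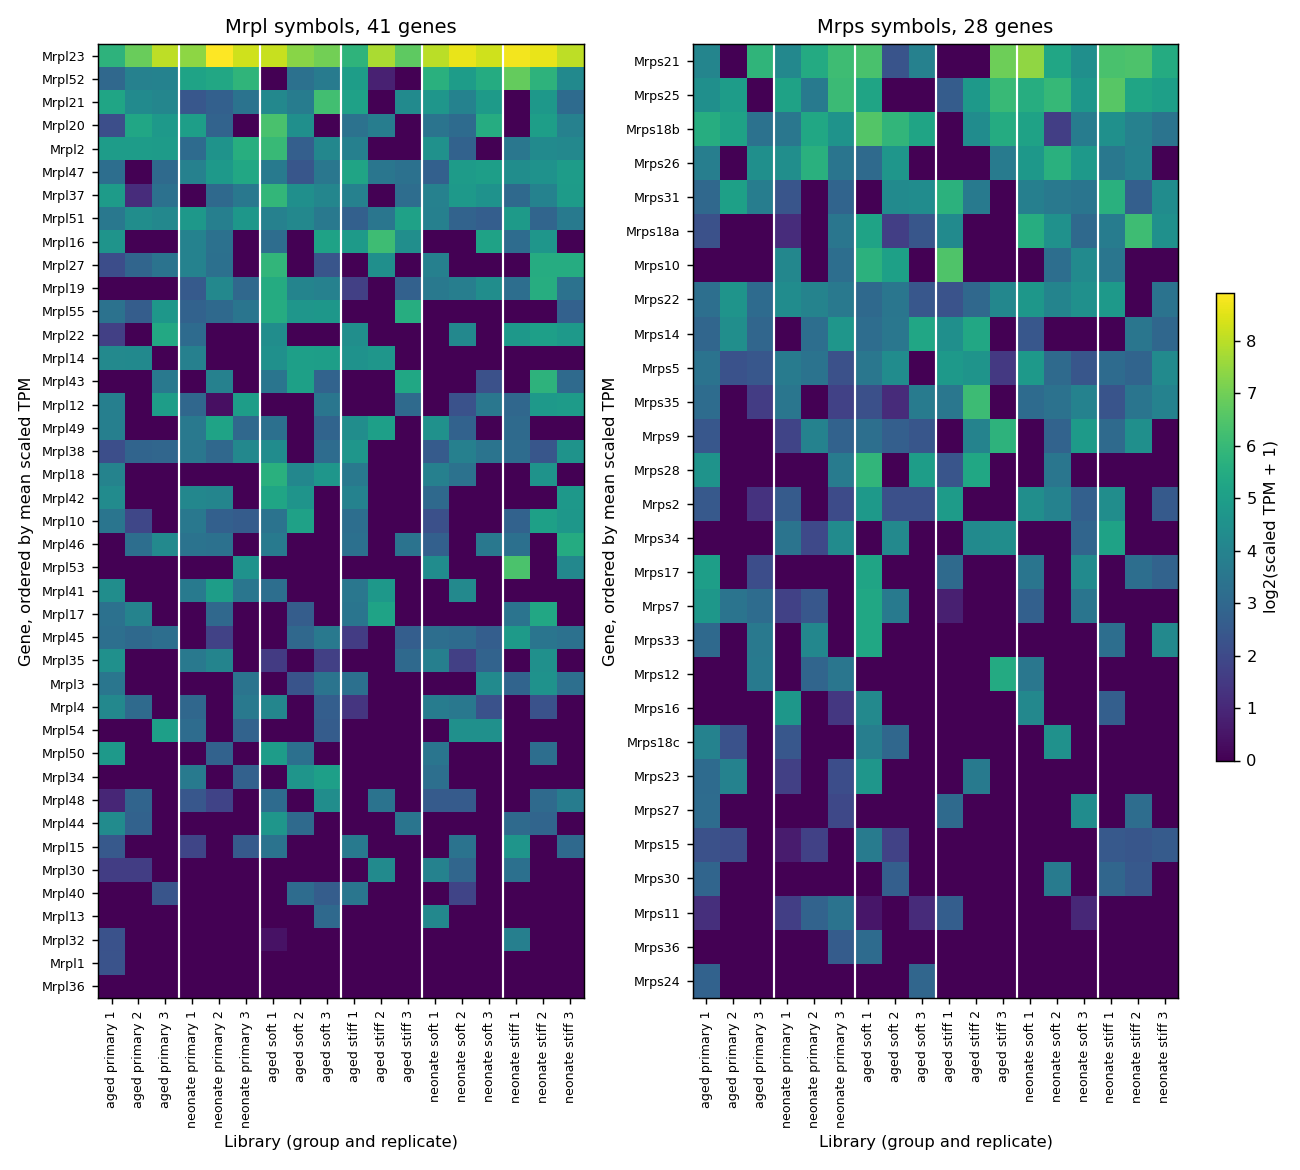
Levels of the 69 members in 18 libraries as log2(scaled TPM + 1), Mrpl symbols left and Mrps symbols right, with genes in rows ordered by mean level and libraries in columns by group. Mrpl23, the top row on the left, is bright in every library, and 562 of the 1242 cells are at 0, the darkest colour.

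Mrpl23, a protein near the exit of the nascent chain from the large subunit, was the highest member, at a median of 258 scaled TPM against 40.00 for the next, Mrps21. It lies on rn6 at chromosome 1, 215701544 to 215709313, with 5 exons. Its levels were 52.9, 118 and 258 in aged primary libraries, and neonate primary libraries held 170.3, 483 and 312. On soft gels aged cells had 284, 159.9 and 130, where neonate cells had 257, 397 and 308. On stiff gels aged cells had 54.9, 222 and 102, where neonate cells had 434, 389 and 261. The ages overlapped in primary cells and on soft gels. On stiff gels every aged level lay below every neonate one. The difference passed the test in neither primary cells (-1.32 ± 0.58 SE on the log2(scaled TPM + 1) scale, limma, adjusted p = 0.314) nor stiff gels (-1.70 ± 0.58 SE, limma, adjusted p = 0.153). The lowest levels, 52.9 and 54.9, belong to broad libraries.

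Reads of Mrpl23 were not spread evenly over its exons. Exons 3 and 4, with 157 of 540 bases, held 66.6% to 89.4% of its covered bases, at 4.85 to 20.6 times the depth of the other exons, and were the deepest in each of the 18 libraries. Median coverage over libraries was 0 in exon 1, 1.57 in exon 2, 19.7 in exon 3, 22.5 in exon 4 and 2.02 in exon 5. The other exons carried only 0.310 to 4.38 pairs per library. Taken alone they gave levels of 7.88, 18.8 and 61.8 scaled TPM in aged primary libraries, and 51.3, 124 and 73.6 for neonate primary. On stiff gels they gave 25.9, 81.1 and 17.7 for aged cells, and 86.8, 105 and 67 for neonate cells. There the ages overlap, unlike in the whole gene. No annotated gene of the files overlaps these exons, and the reason for the uneven coverage was not tested. Mrpl23 made up 7.19% to 47.0% of the members' TPM in a library, so sums over members are given with and without it.

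**Figure D2:**
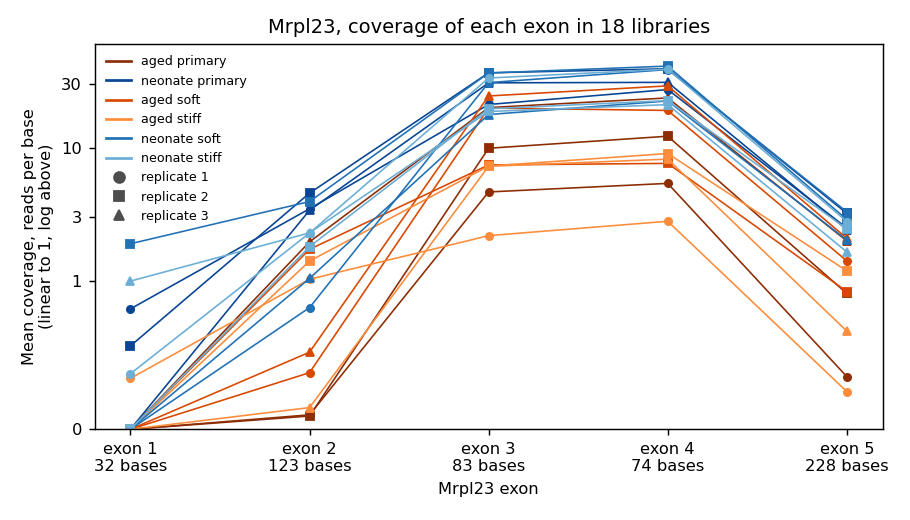
Mean read coverage of each Mrpl23 exon in each of 18 libraries, coloured by group, on an axis that is linear to 1 and logarithmic above. Exons 3 and 4 are the deepest in every library, with median coverage of 19.7 and 22.5 against at most 2.02 in the others.

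The other well covered members varied widely between replicates. Mrpl51, a mitochondria-specific protein of the large subunit (chromosome 4, 157705790 to 157708748), had a median of 13.5 scaled TPM with reads on all 3 exons. Its levels were 11, 19.5 and 16.9 in aged primary cells, and neonate primary cells had 25.9, 13.4 and 25.3. They were 14, 17.1 and 11.1 on aged soft gels, then 13.6, 6.11 and 5.42 on neonate soft gels. On stiff gels they were 5.63, 10.3 and 33.3 with aged cells, then 28.1, 6.57 and 11.7 with neonate cells. The ages overlap in all 3 settings. Mrps21, a small subunit protein with a bacterial relative (chromosome 2, 197974758 to 197982385), was at 0 in aged primary replicate 2 and aged stiff replicates 1 and 2, and reached 174 in neonate soft replicate 1. Mrps18b, also of the small subunit (chromosome 20, 3344870 to 3350929), had a median of 22.1. Its aged soft levels were 91.7, 57.3 and 36, above the neonate soft levels of 34.4, 2.19 and 12.3 without overlap (limma, adjusted p = 0.265). Mrps25, specific to mitochondria (chromosome 4, 124036654 to 124048417), had a median of 30.5 and was at 0 in 3 of the 18 libraries.

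Mrpl12, known as a partner of the mitochondrial RNA polymerase (chromosome 10, 109658032 to 109662535), was above 0 in 12 libraries at a median of 6.85. It was at 0 in most gel libraries of aged cells and at 6.79, 26.6 and 28.5 on neonate stiff gels. Mrps12, a protein of the decoding centre (chromosome 1, 86920680 to 86923575), was above 0 in only 5 libraries, at most 42.3 in aged stiff replicate 3. Of the 49 members not named by the rule, 43 were tested, and 20 of those had a median of 0 over the libraries. The highest medians among them were those of Mrpl2 (16.7) and Mrpl21 (16.4), both of the large subunit.

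The comparison of aged with neonate primary cells asks how the sorted cells differ with age, and their OPC and microglial markers differ as well. The members took a smaller share of the reads in aged primary libraries, but no single member passed the test. Of every 10000 pairs outside ribosomal RNA, the members took 12.8, 9.77 and 11.5 in aged primary libraries, a mean of 11.4 ± 1.50 (SD, n = 3). In neonate primary libraries they took 16.7, 22.1 and 22.4, a mean of 20.4 ± 3.22. Every aged library lay below every neonate one, and the ratio of the means was 0.557. Without Mrpl23 the shares were 12.3, 8.55 and 8.91, against 14.3, 15.2 and 18.1, also without overlap. Sums of scaled TPM overlapped, with 736, 504 and 718 for aged primary, against 671, 1027 and 956. Without Mrpl23 these sums were 683, 385 and 460.1, against 501, 544 and 645, a ratio of means of 0.905. The marker sums of OPCs and microglia split the same libraries, as did those of endothelial cells (35.4 to 179 for aged primary, against 14.7 to 32.7), and their part in this was not tested.

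**Figure D3:**
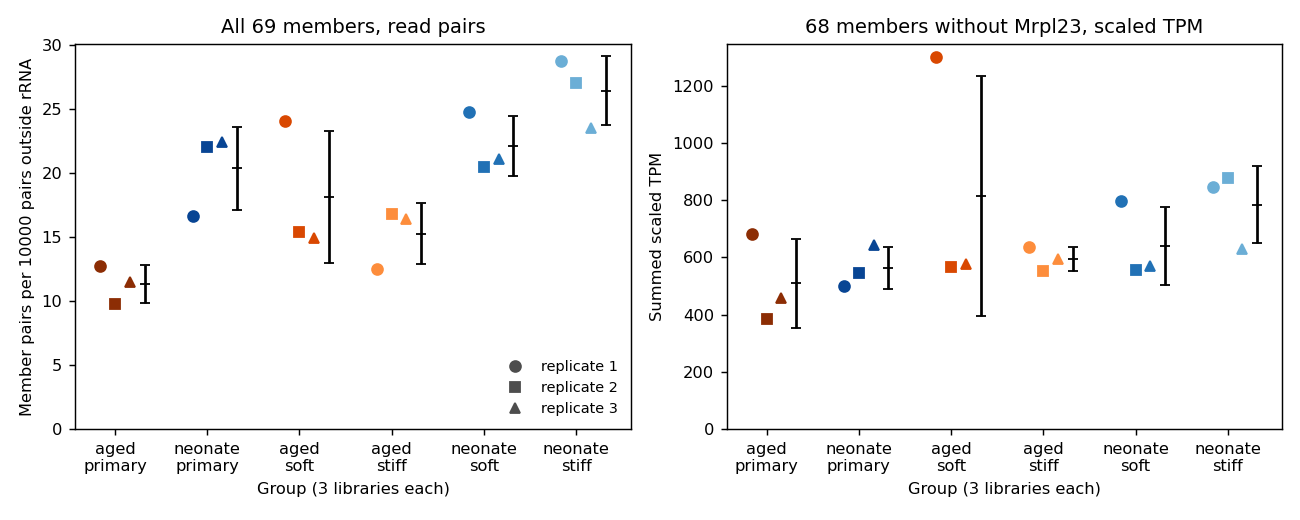
Pooled level of the members in each library by group, as pairs per 10000 pairs outside ribosomal RNA for all 69 members (left) and as summed scaled TPM without Mrpl23 (right). Points are libraries and bars the mean and SD (n = 3). On the left, aged primary libraries (9.77 to 12.8) lie below neonate primary ones (16.7 to 22.4), and on the right they overlap.

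Gene by gene, limma called none of the 63 members between aged and neonate primary cells, where 2.6% of all 15144 tested genes were called. An unadjusted p under 0.05 was found for 6 members (9.52%, against 12.7% of all genes), 1 higher and 5 lower in aged cells. Here and below, the share of all genes with an unadjusted p under 0.05 counts both directions together. Shares by direction are not given, so the splits by direction have no background. Voom, a model of the read equivalents, called 1, Mrpl47, as lower (adjusted p = 0.0339). Mrpl47 and Mrps11 passed as lower with quantile normalization (limma, adjusted p of 0.0355 and 0.0337). Mrps11 rested on at most 0.977 pairs in any library and on 2.58 over all libraries. Shares of all genes called by voom or with quantile normalization are not given. These counts, and those of voom below, therefore have no background beside them. Mrpl47, named after its values were seen, had 8.31, 0 and 7.47 scaled TPM for aged primary, against 14, 27 and 39.6. Its reads fell on 3 of 7 exons, and 1 exon with 67.0% of its bases held 93.8% of its covered bases. Its exons overlap Actl6a on the opposite strand, whose reads cannot be told apart. The members' median difference was -0.11 on the log2(scaled TPM + 1) scale and that of all genes 0.69. The members thus lay 0.80 below all genes, and 44 of 63 lay below that median. Without the broad libraries they lay 0.30 below it. All genes were shifted upwards in aged cells on soft gels (0.86) and stiff gels (0.49) as well. Groups did not overlap for 4 members higher in aged cells (6.35%, against 11.1% of all genes) and 6 lower (9.52%, against 4.97%).

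Among members whose primary groups did not overlap, Mrpl19 and Mrps34 had the most negative differences and Mrpl45 and Mrps7 the most positive. Mrpl19, a large subunit protein with a bacterial relative (chromosome 4, 112703041 to 112707270), was listed at 0 in every aged primary library, and neonate primary libraries held 4.82, 16.8 and 7.02 scaled TPM. Its difference of -3.23 ± 0.97 SE missed the threshold (limma, adjusted p = 0.0786) and passed it without aged stiff replicate 2 (limma, adjusted p = 0.0452). It also passed with a pseudocount of 0.1, without scaling and with TPM outside ribosomal RNA (limma, adjusted p of 0.0345, 0.0297 and 0.0296). Such a size depends on the pseudocount, since a group is at 0. A single exon of Mrpl19, with 19.1% of its bases, held 70.8% of its covered bases. Mrps34, a mitochondria-specific small subunit protein (chromosome 10, 14257001 to 14258132), was also at 0 in every aged primary library, with 9.89, 2.88 and 18.6 in neonate ones. Mrps11, on the platform of the small subunit and named for gels against primary cells (chromosome 1, 140477868 to 140487248), had 1.29, 0 and 0 for aged primary, against 2.12, 6.20 and 9.52. Mrpl45, thought to help anchor the ribosome to the inner membrane (chromosome 10, 85257876 to 85269806), went the other way with 8.60, 7.34 and 8.33, against 0, 2.40 and 0. Mrps7, which binds ribosomal RNA in the small subunit (chromosome 10, 104155805 to 104158840), had 25.3, 9.70 and 7.84, against 2.33, 4.40 and 0. Adjusted p-values of these 4 ran from 0.285 to 0.484 (limma).

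Soft and stiff gels were compared to ask what the stiffness of the substrate does at each age. No member was called by limma in aged cells, where 0.0792% of all genes were called, nor in neonate cells, where 0.0% were. Voom called no member in either. An unadjusted p under 0.05 was found for 9 members in aged cells (14.3%, against 10.9% of all genes), 8 of them higher on soft gels. In neonate cells it was found for 4 (6.35%, against 2.89%), 3 of them lower on soft gels. Both shares of all genes count both directions. In aged cells the members took 24.1, 15.4 and 15 of every 10000 pairs on soft gels, and 12.5, 16.8 and 16.5 on stiff gels. The means were 18.1 ± 5.14 and 15.3 ± 2.38 (SD, n = 3), the libraries overlapped, and the order of the means turned without the broad libraries, to 15.2 on soft and 16.6 on stiff gels. In neonate cells the members took 24.8, 20.5 and 21.2 on soft gels, and 28.8, 27.1 and 23.5 on stiff gels. The means were 22.2 ± 2.33 and 26.5 ± 2.67 (SD, n = 3), and these libraries overlapped too.

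Against the median of all genes, the members' median difference was 0.27 towards soft gels in aged cells and -0.13 in neonate cells. In aged cells its sign turned to -0.27 without the broad libraries. Leaving out 1 library gave -0.23 to 0.37, with a negative sign without aged soft replicate 3 or aged stiff replicate 1. Groups of aged cells did not overlap for 3 members higher on soft gels (4.76%, against 6.63% of all genes) and for none lower (against 1.69%). Mrpl37, one of the 3, was chosen after its values were seen and is only named. Mrpl19 had 44.1, 15.2 and 14.1 on aged soft gels, against 2.22, 0 and 5.89 on aged stiff gels (limma, adjusted p = 0.246). Mrpl18, a large subunit protein with a bacterial relative (chromosome 1, 48033768 to 48038725), had 49.1, 16.5 and 25, against 11, 0 and 0 (limma, adjusted p = 0.347). Mrps25, at 35.6, 0 and 0 on aged soft and 5, 27.7 and 63.6 on aged stiff gels, passed as lower on soft gels without the broad libraries (limma, adjusted p = 0.0454), and Mrpl55 passed as higher without aged stiff replicate 3 (limma, adjusted p = 0.0483).

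In neonate cells the gels did not overlap for 2 members higher on soft gels (3.17%, against 3.8% of all genes) and 4 lower (6.35%, against 2.53%). Mrps26, a mitochondria-specific small subunit protein (chromosome 3, 123093264 to 123094927), had 25.7, 49.9 and 27.1 on soft gels, against 10.8, 14.4 and 0. Mrpl4, a large subunit protein with a bacterial relative (chromosome 8, 22021213 to 22027228), had 12.5, 11 and 3.76, against 0, 3.74 and 0. Both were low on stiff gels, with 0 in 1 or 2 libraries. Mrpl10, at the base of the stalk that binds translation factors (chromosome 10, 84976377 to 84984793), had 3.51, 0 and 0 on soft gels, against 5.94, 32.3 and 25.3. Mrpl22, which lines the exit tunnel (chromosome 10, 43601786 to 43612119), had 0, 16.9 and 0, against 26, 32.1 and 26.5. Exon 3 of Mrpl22, with 16.1% of its bases, held 73.1% of its covered bases. These 4 adjusted p-values were all 1 (limma).

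Whether the effect of the gel differed with age was tested as the difference of the differences. Limma called no member (0.0066% of all genes), and voom called none. An unadjusted p under 0.05 was found for 6 members (9.52%, against 5.24% of all genes in either direction), each with a more positive soft-minus-stiff difference in aged cells. The lowest adjusted p was that of Mrpl10 (5.22 ± 1.84 SE, limma, adjusted p = 0.761).

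Age on soft gels gave the only called member. Mrpl55, a large subunit protein (chromosome 10, 45552795 to 45555943), had 44.7, 25 and 25.7 scaled TPM on aged soft gels and was listed at 0 in every neonate soft library. Its difference was 4.98 ± 1.24 SE (limma, adjusted p = 0.0360), a size that depends on the pseudocount. The aged soft levels stood for 3.15, 1.47 and 5.44 read pairs. In primary cells it had 9.17, 5.27 and 25.2 with age, against 5.95, 7.29 and 10.02, which overlap. On stiff gels it had 0, 0 and 46.2 with age, against 0, 0 and 5.77, which overlap as well. The call was lost without any 1 of the 6 libraries compared, at adjusted p-values of 0.127, 0.0682 and 0.0663 without aged soft replicates 1, 2 and 3 and 0.118, 0.116 and 0.124 without neonate soft replicates 1, 2 and 3 (limma). It was also lost without the broad libraries (limma, adjusted p = 0.0679), with a pseudocount of 0.1 (0.0657), with quantile normalization (0.0717) and with TPM outside ribosomal RNA (0.0512). Microglial markers summed to 301 to 612 on aged soft and 46.5 to 122 scaled TPM on neonate soft gels, and OPC markers to 317 to 649.9 and 1258 to 1575. Endothelial markers (8 genes) summed to 44.3 to 131 on aged soft and 6.33 to 14.3 on neonate soft gels, and astrocyte markers (8 genes) to 52.1 to 152 and 162 to 337. Their part in it was not tested.

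**Figure D4:**
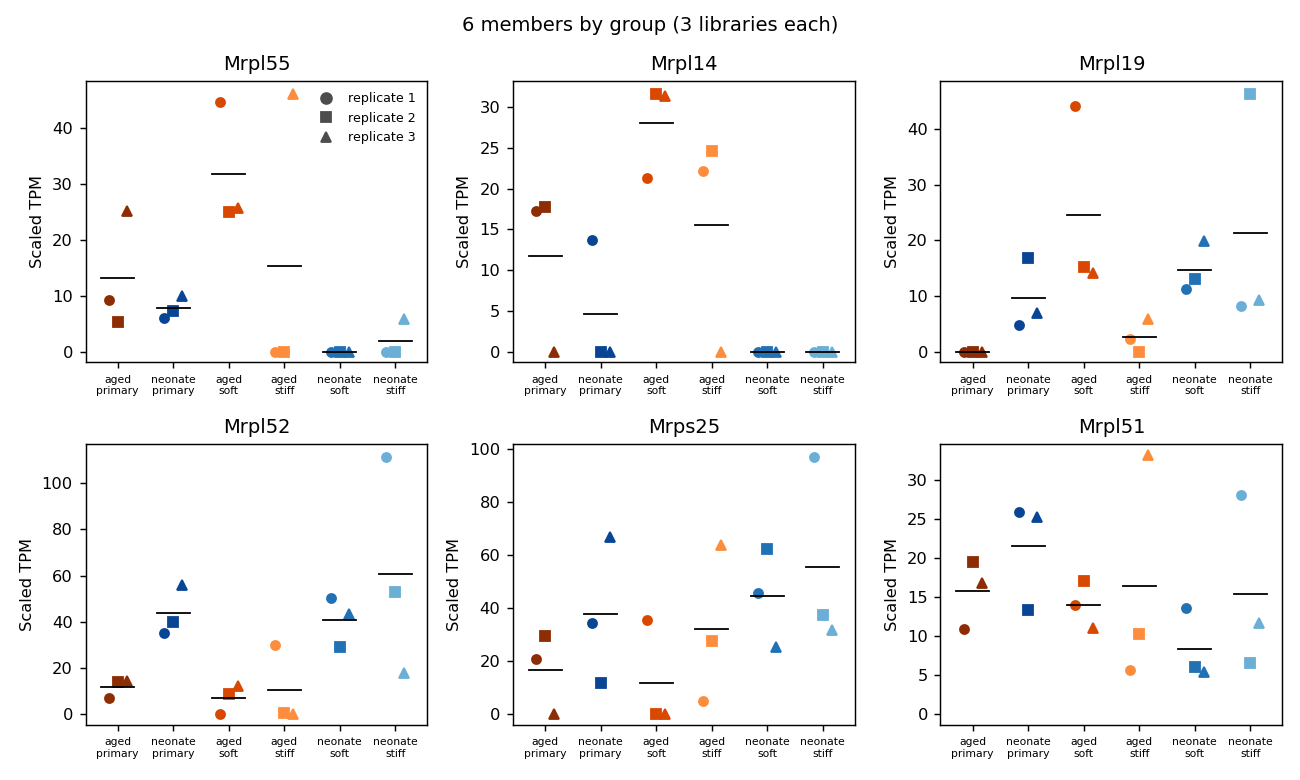
Scaled TPM of Mrpl55, Mrpl14, Mrpl19, Mrpl52, Mrps25 and Mrpl51 in each library by group, points for libraries and lines for group means. Mrpl55 is at 25 to 44.7 on aged soft gels and at 0 on neonate soft gels, and Mrpl51 overlaps between the ages in every setting.

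The 1 called member of 63 on soft gels stood beside 1.56% of all genes called. An unadjusted p under 0.05 was found for 6 members (9.52%, against 16.6% of all genes), 4 of them higher in aged cells. Voom called 2, Mrpl55 as higher and Mrps25 as lower. Groups did not overlap for 6 members higher in aged cells (9.52%, against 16.0% of all genes) and 3 lower (4.76%, against 3.68%). Mrpl14, at the interface of the subunits (chromosome 9, 17687622 to 17698569), had 21.3, 31.6 and 31.4 on aged soft gels and was listed at 0 in every neonate gel library (limma, adjusted p = 0.0702). It passed without aged primary replicate 1, aged primary replicate 3 or aged stiff replicate 3 (limma, adjusted p of 0.0480, 0.0487 and 0.0340). Mrpl52, a mitochondria-specific large subunit protein (chromosome 15, 33069553 to 33072777), had 0, 8.92 and 12.2 with age, against 50.2, 29.3 and 43.4 (limma, adjusted p = 0.155). Mrps25 had 35.6, 0 and 0 with age, against 45.6, 62.2 and 25.2 (limma, adjusted p = 0.137). It passed as lower without the broad aged soft replicate 1 (limma, adjusted p = 0.0202) or all broad libraries (limma, adjusted p = 0.0136). Mrps26 had 7.52, 24.5 and 0, against 25.7, 49.9 and 27.1, without overlap (limma, adjusted p = 0.338).

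The members' share on soft gels overlapped between the ages, at 24.1, 15.4 and 15 per 10000 pairs with age, against 24.8, 20.5 and 21.2. The ratio of the means was 0.819. Without the broad aged library it was 0.685 and the groups did not overlap. By summed scaled TPM the ratio was 1.05, and without Mrpl23 1.27, the other direction.

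On stiff gels the members' share was lower in every aged library. It was 12.5, 16.8 and 16.5 per 10000 pairs with age, against 28.8, 27.1 and 23.5, a ratio of means of 0.577, and 0.638 without Mrpl23. Summed scaled TPM was 690.1, 774 and 698, against 1279, 1268 and 891, without overlap. Without Mrpl23 it was 635, 552 and 596, against 844, 879 and 629.8, which overlap. Limma called no member, against 2.18% of all genes, and voom called none. An unadjusted p under 0.05 was found for 13 members (20.6%, against 13.6% of all genes in either direction). Of these members 12 were lower in aged cells, and no share of all genes by direction is given beside them. The members' median lay 1.09 below that of all genes, and 0.75 below it without the broad libraries. Groups did not overlap for 0 members higher in aged cells (against 5.61% of all genes) and 5 lower (7.94%, against 4.79%). Markers of OPCs summed to 79.4 to 444 scaled TPM on aged stiff and 894 to 1657 on neonate stiff gels, and those of microglia to 134 to 394 and 34.4 to 52.5. Endothelial markers summed to 17.7 to 121 on aged stiff and 0 to 2.31 on neonate stiff gels, and astrocyte markers to 40.1 to 147 and 204 to 339. None of these sums overlapped between the ages. Their part in it was not tested.

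Mrpl52 came nearest to the threshold on stiff gels, with 30.1, 0.770 and 0 scaled TPM with age, against 111, 52.9 and 18 (-3.68 ± 1.06 SE, limma, adjusted p = 0.0689). The level of 30.1 belongs to the broad library. Mrpl52 passed as lower without aged soft replicate 1 (limma, adjusted p = 0.0363), aged stiff replicate 1 (limma, adjusted p = 0.00445) or the broad libraries (limma, adjusted p = 0.00110). In primary cells it had 7, 14.2 and 14.4 with age, against 35.1, 39.9 and 56.1, without overlap (limma, adjusted p = 0.530). Its mean was thus lower with age in all 3 settings, short of the threshold in each.

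Mrpl22 and Mrpl19 had the largest differences among the members that did not overlap on stiff gels. Mrpl22 had 20.2, 0 and 0 with age, against 26, 32.1 and 26.5 (limma, adjusted p = 0.327). Mrpl19 had 2.22, 0 and 5.89, against 8.23, 46.4 and 9.20 (limma, adjusted p = 0.228). Further members depended on single libraries on stiff gels. Mrps21 had 0, 0 and 122 with age, against 81.1, 85.7 and 43.5, and passed as lower without aged stiff replicate 3 (limma, adjusted p = 0.00609). Mrpl14 had 22.1, 24.6 and 0 with age and was at 0 in every neonate stiff library. It passed as higher without the same library, aged stiff replicate 3, where its level was 0 (limma, adjusted p = 0.0484). Mrps18a, named after its values were seen, had 18.1, 0 and 0 with age, against 12.5, 69.6 and 21.1. It passed as lower without aged stiff replicate 1 (limma, adjusted p = 0.0459) or the broad libraries (limma, adjusted p = 0.0270). Aged stiff replicate 1 was the only aged stiff library with Mrps18a above 0.

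Gels were set against primary cells of the same age to ask what culture does, and they differ from them in more than the substrate. In aged primary, soft and stiff libraries microglial markers summed to 2586 to 4401, 301 to 612 and 134 to 394 scaled TPM. OPC markers summed to 86.1 to 186, 317 to 649.9 and 79.4 to 444. In neonate libraries the microglial sums were 129 to 261, 46.5 to 122 and 34.4 to 52.5. The OPC sums there were 770.2 to 872, 1258 to 1575 and 894 to 1657. Their part in the differences below was not tested. Limma called no member in aged cells (1.11% of all genes) or neonate cells (0.099%). An unadjusted p under 0.05 was found for 2 members in aged cells (3.17%, against 9.74% of all genes) and 6 in neonate cells (9.52%, against 4.70%). Voom called 1 in aged cells, Mrpl19, and none in neonate cells. Mrpl19 was at 0 in aged primary cells and at 0 to 44.1 scaled TPM on aged gels (2.98 ± 0.84 SE, limma, adjusted p = 0.0901, and 0.0325 without aged stiff replicate 2). In neonate cells Mrpl45 had 0, 2.40 and 0 in primary libraries and 5.29 to 28.4 in the 6 gel libraries, without overlap (limma, adjusted p = 0.528). Mrps11 and Mrpl55 were lower on neonate gels without overlap (limma, adjusted p = 0.528 and 0.861). The nearest levels of Mrpl55 were 5.95 in neonate primary replicate 1 and 5.77 in neonate stiff replicate 3. Shares of all genes without overlap are not given for gels against primary cells. The members named here as not overlapping therefore have no background beside them. The members' median lay 0.16 below that of all genes in aged cells and 0.07 above it in neonate cells. Without the broad libraries the first was 0.12 above it. Leaving out 1 library turned both signs, with ranges of -0.36 to 0.17 and -0.12 to 0.21. The libraries that turned them are aged primary replicates 2 and 3 and aged stiff replicate 1, and neonate primary replicate 3 and neonate stiff replicates 1 and 2. The primary libraries here are those of the comparison by age.

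**Figure D5:**
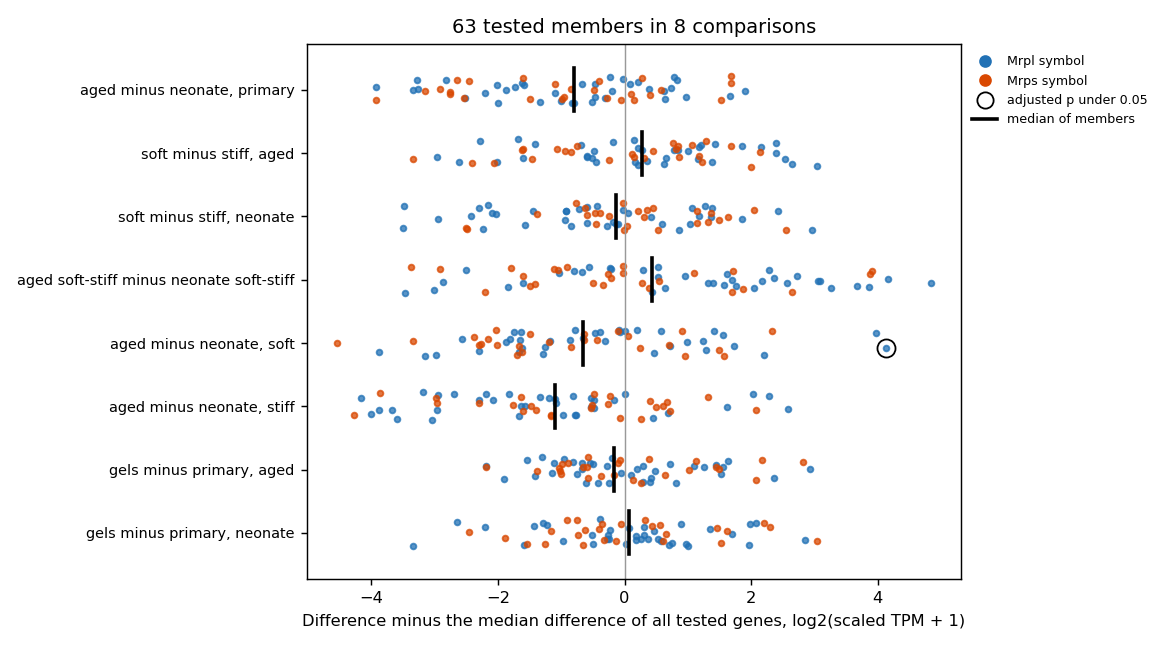
Difference of each of 63 tested members in 8 comparisons, minus the median difference of all 15144 tested genes, on the log2(scaled TPM + 1) scale. Colours mark Mrpl and Mrps symbols, bars the members' medians and a circle an adjusted p under 0.05. The single circle is Mrpl55 in aged minus neonate on soft gels, and the medians run from -1.09 to 0.43.

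With age, the median relative to all genes was -0.68 for the 37 tested members with Mrpl symbols and -0.90 for the 26 with Mrps symbols in primary cells. It was -0.46 and -1.02 on soft gels and -1.19 and -0.52 on stiff gels. The difference between them was not tested.

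Other genes of mitochondrial ribosome assembly and expression were taken from lists. Of 7 mitochondrial ribosomal proteins under other symbols, 1 was called in any comparison, by age on stiff gels, where 2.18% of all genes were. Mrp63, a mitochondria-specific protein of the large subunit (chromosome 15, 38096994 to 38097849), had 89.5, 30.7 and 15.6 scaled TPM on aged stiff gels and was listed at 0 in every neonate stiff library (limma, adjusted p = 0.0271). It overlaps 56 exonic bases of Ska3 on the opposite strand. Of 19 tested genes of ribosome assembly and RNA modification, 1 rose and 1 fell with age in primary cells, where 2.6% of all genes were called, and none was called elsewhere. Tfb1m, a methyltransferase of the small subunit RNA (chromosome 1, 44433116 to 44474674), had 16.3, 0 and 0 with age, against 94.7, 65.7 and 85.6 (-4.99 ± 1.15 SE, limma, adjusted p = 0.0151). Wbscr16, also called Rcc1l and needed for ribosome assembly (chromosome 12, 25562029 to 25592332), had 35, 41.3 and 33.3, against 1.21, 0 and 16 (limma, adjusted p = 0.0258). Limma called none of 15 tested mitochondrial aminoacyl-tRNA synthetases, 15 genes of mitochondrial transcription and genome maintenance or 10 regulators of mitochondrial biogenesis in the 8 comparisons.

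Subunits of oxidative phosphorylation (80 genes) and cytosolic ribosomal proteins (79 genes) also took smaller shares of reads in aged primary cells. With age, the ratio of mean shares in primary cells was 0.557 for the members, 0.579 for oxidative phosphorylation and 0.584 for cytosolic ribosomal proteins. The ages did not overlap in either of these lists, at 25.1 to 34.9 per 10000 pairs against 47.3 to 53.9, and 109 to 258 against 267 to 381. Sums of scaled TPM overlapped in both, at 1780 to 2591 against 2110 to 2542, and 11573 to 23285 against 17239 to 25448. For members, oxidative phosphorylation and cytosolic ribosomal proteins, the ratios of mean shares were 0.819, 0.691 and 0.540 on soft gels. On stiff gels they were 0.577, 0.634 and 0.302, and by share of TPM outside ribosomal RNA 0.677, 0.886 and 0.364. On stiff gels, where limma called 2.18% of all genes by age, 18 of 77 tested cytosolic ribosomal protein genes and 3 of 75 oxidative phosphorylation genes fell with age, and none of the 63 members was called. The difference between the lists was not tested. The members had fewer reads, at 9.77 to 28.8 per 10000 pairs against 90.7 to 572 for cytosolic ribosomal proteins.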

How the data were processed

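Total RNA of 18 libraries was analysed, in 6 groups of 3 taken from the titles and sources in the labels. The authors deposited 1 transcript table per library. Per the file headers, StringTie 1.3.2d was run on annotated rn6 transcripts only, with no strand option, and gave each transcript its TPM, FPKM and mean coverage. The kit is stranded, per the labels' protocols. Trimmomatic, HISAT2 and Bowtie are named in the submitters' processing notes, and their roles and versions are not given in the sources used here.

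TPM was summed per gene and scaled by median ratios over 1644 genes. Read pairs were estimated from coverage and length at 300 bases each. The 15144 genes with TPM of 1 or more in 3 or more libraries were tested on log2(scaled TPM + 1) in limma 3.58.1 (R 4.3.3). The model had 6 means and a variance trend, with Benjamini-Hochberg adjustment at 0.05. The fit was first tested on simulated data, with changes placed in genes with more reads than every member but Mrpl23. The rates of recovery and of false calls in that test are not given here. Recovery of a change at the depth of the other members was not tested. Pooled shares leave out 7 genes on ribosomal RNA loci and have no test.

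The members, lists and tests were chosen with earlier results of these data known. The 20 named members were those called, those above 0 in all libraries, in each comparison (not the difference of differences) up to 2 each way with the largest difference among groups that do not overlap and a higher mean of at least 5 scaled TPM, the 5 highest medians, Mrps12 and Mrpl12. The result for mitochondrial translation factors is not reported here.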

Additional observations from a re-analysis of the deposited data

How the results depend on the processing

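Each test was repeated under 28 alternatives, 18 of which left out 1 library. Over 8 comparisons, 196 counts of called members were the same as reported, 20 were higher and 8 lower. Shares of all genes called under the alternatives are not given beside these counts. In primary cells by age the count went from 0 to 1 with a pseudocount of 0.1, without scaling, with TPM outside ribosomal RNA and with voom, and to 2 with quantile normalization. On soft gels by age it went from 1 to 0 with a pseudocount of 0.1, quantile normalization or TPM outside ribosomal RNA, and to 2 with voom, with only the groups compared and with the replicate block, the last 2 adding Mrpl14. Without the 3 broad libraries it stayed at 1, with Mrps25 lower in place of Mrpl55. Without the broad libraries it went from 0 to 2 on stiff gels by age and from 0 to 1 between gels in aged cells. With voom it went from 0 to 1 in gels against primary cells with age. Leaving out 1 library gave 0 to 1 in primary cells by age, between gels in aged cells and in gels against primary cells with age, 0 to 2 on soft and on stiff gels by age, and 0 in the other comparisons. Of 32 tested differences of named members, none changed sign under these alternatives. The members' median relative to all genes moved by less than 1 SD of the library medians (0.549). Some signs turned within that limit. For gels against primary cells in neonates, 0.07 became -0.03 with a pseudocount of 0.1 and -0.19 without scaling. It became -0.05 with quantile normalization, -0.20 with TPM outside ribosomal RNA and -0.07 with voom. Between gels in aged cells, 0.27 became -0.02 with voom. The cause of these changes was not tested. Replicate numbers were not taken as pairs, since the labels do not tie libraries to animals. Correlations of deviations between libraries of the same number ran from -0.09 to 0.23, with 4 of 45 above 0.1. All 4 were between aged libraries (0.23, 0.21, 0.15 and 0.12). Those of 0.23, 0.21 and 0.12 were between the broad libraries, and that of 0.15 was between replicate 3 of aged primary and aged stiff. Whether these libraries share a source was not tested, nor was the part of the broad detection. The replicate block changed no other count. Of 29 alternatives for the pooled share, added after the data were seen, 8 moved by more than 1 SD. Depth, at a median of 0.430 pairs per value, limits every statement on a single member.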
